A study of Mus musculus with 12 samples.

Results

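The open chromatin of dorsal root ganglia lacking Silc1 was compared after nerve injury and after sham operation, through the 2 lists of ATAC-seq peak summits that the authors made for these groups. ATAC-seq marks accessible DNA with a transposase, and a summit is the base at the top of a peak. Every summit of the list for injured Silc1-/- ganglia (35815) and of the list for sham-operated Silc1-/- ganglia (48332) was used, 84147 of the 155267 summits in the 4 lists of the series. A summit was called partnered when the other list had a summit within 200 bp.

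Each of the 12 samples of the series held 6 lumbar L4 to L6 ganglia, with 3 samples in each of 4 groups. The groups compared here were Silc1-/- mice with a sciatic nerve crushed 2 times for 30 seconds at mid-thigh, and Silc1-/- mice after sham operation, 3 libraries each. Both groups therefore carry the same Silc1 loss, and the labels used here do not state the design of the deletion, the animals' age or sex or the time from crush to dissection. Each list stands for a group, so there is no spread between replicates, no difference was tested, and every value below describes these lists alone. Sequencing depth is unknown. Intervals are 95% Wilson intervals that cover counting error only.

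The ganglia contain the somata of sensory neurons, satellite glia that wrap them, Schwann cells, vessels and macrophages. After axon injury these neurons are known to turn on regeneration-associated genes, among them the transcription factors Atf3, Jun and Sox11 and growth-cone proteins such as Gap43 and Basp1, and to lower many genes of sensory identity and excitability. Silc1 is a long noncoding RNA of sensory neurons encoded in the neighbourhood of Sox11 and has been linked to its induction. The ganglia are bulk tissue, in which fewer cells of a type and less open chromatin per cell cannot be told apart.

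Promoter windows are shown for 6 genes whose starts carry the main contrast: Pou4f1 and Avil, sensory neuron genes with a sham summit alone; Cops9, the strongest start of the sham list alone; S1pr2 and Ackr3, receptor genes with an injured summit alone; and Atf3, open in both lists. Each runs 5′ to 3′ from 250 bases before to 50 after a RefSeq start (GRCm38.p6, the same build as mm10). Capitals mark matches, on either strand, to 7 motifs: AP-1 TGANTCA, CRE TGACGTCA, Sp/KLF GGGCGG, NRF1, ETS CCGGAAGT, NFY CCAAT and the CTCF core CCCTC. Matches can overlap, as in runs where CCCTC on the reverse strand runs into GGGCGG.
Pou4f1 chr14:104467950-104468249(-): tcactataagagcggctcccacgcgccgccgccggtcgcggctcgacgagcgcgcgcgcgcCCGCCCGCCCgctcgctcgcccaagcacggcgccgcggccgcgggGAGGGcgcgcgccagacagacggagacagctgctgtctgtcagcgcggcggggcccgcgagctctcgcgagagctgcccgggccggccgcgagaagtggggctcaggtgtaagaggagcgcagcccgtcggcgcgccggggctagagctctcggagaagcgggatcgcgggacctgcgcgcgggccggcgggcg
Avil chr10:127000459-127000758(+): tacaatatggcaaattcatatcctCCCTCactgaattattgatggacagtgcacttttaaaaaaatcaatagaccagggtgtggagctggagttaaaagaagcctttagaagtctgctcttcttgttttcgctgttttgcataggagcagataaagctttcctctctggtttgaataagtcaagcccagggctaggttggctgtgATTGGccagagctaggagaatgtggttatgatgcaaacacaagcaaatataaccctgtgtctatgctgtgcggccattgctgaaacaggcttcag
Cops9 chr1:92641899-92642198(-): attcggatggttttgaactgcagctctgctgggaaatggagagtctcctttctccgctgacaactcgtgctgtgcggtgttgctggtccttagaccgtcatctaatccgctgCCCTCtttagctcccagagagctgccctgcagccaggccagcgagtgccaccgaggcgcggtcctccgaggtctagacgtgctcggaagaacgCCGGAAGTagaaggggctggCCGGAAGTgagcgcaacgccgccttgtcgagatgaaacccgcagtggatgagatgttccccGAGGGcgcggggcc
S1pr2 chr9:20976744-20977043(-): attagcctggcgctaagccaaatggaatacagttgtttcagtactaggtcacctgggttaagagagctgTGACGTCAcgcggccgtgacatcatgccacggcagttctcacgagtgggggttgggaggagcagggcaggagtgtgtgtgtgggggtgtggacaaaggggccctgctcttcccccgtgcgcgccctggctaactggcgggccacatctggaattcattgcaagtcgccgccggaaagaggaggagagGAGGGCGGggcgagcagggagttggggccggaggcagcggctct
Ackr3 chr1:90203730-90204029(+): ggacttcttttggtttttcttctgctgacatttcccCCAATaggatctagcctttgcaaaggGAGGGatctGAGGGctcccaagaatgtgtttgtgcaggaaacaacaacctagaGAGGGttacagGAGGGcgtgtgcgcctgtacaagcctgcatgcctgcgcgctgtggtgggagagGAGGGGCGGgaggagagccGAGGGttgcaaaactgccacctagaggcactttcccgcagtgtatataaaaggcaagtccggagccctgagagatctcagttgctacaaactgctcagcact
Atf3 chr1:191183284-191183583(-): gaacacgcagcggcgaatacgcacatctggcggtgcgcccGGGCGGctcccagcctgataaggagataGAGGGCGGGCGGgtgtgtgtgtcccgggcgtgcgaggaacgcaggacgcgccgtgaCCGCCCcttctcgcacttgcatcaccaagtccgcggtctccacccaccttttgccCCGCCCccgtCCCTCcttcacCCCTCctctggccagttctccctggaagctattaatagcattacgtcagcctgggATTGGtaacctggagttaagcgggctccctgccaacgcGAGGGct

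The Pou4f1 window was the richest in G and C, at 78.3%, with 57 CpG dinucleotides, and its sham summit was at base 180 of the window. The Avil window was at 43.0%, with 2 CpG, and its sham summit was at base 112. Cops9 stood between them at 61.3%, with 2 ETS matches downstream of the sham summit at base 183. In S1pr2 the injured summit was at base 254, 3 bp after the start, and the window held 1 CRE match. In Ackr3 it was at base 264, 13 bp after the start, in a window with 6 CTCF core matches and 1 Sp/KLF match. Atf3 had the injured summit at base 63 and the sham summit at base 117, among 5 Sp/KLF matches.

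Of 35815 injured summits, 22039 (61.5%, 61.0 to 62.0) had a sham partner, and of 48332 sham summits, 22088 (45.7%, 45.3 to 46.1) had an injured one. With summits joined within 50 bp the shares were 35.3% and 26.1%. This left 13776 injured summits (38.5%) and 26244 sham summits (54.3%) without a partner. The sham list is longer, so both lists were also cut to the 35815 highest scores. The score is the value the authors' peak caller gave each peak, on a −log10 scale. At equal length 54.8% of injured (54.3 to 55.3) and 54.6% of sham summits (54.1 to 55.1) were partnered, and 45.2% and 45.4% were not. These near-equal shares follow from equal lengths. The cut took the sham list down to a score of 3.01, where 1097 of 3260 tied summits were kept, while the injured list reached down to 1.31.

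Partnering followed the score rank. In the lowest decile of scores 27.9% of injured and 18.6% of sham summits were partnered. In the highest decile the shares were 86.5% and 91.6%. At equal length they ran from 19.9% to 86.4% in the injured list and from 24.5% to 91.7% in the sham list. As deposited the ninth decile of the injured list, at 88.2%, stood above the highest one, while that of the sham list was at 87.1%. The median score was 6.55 for partnered and 3.09 for unpartnered injured summits, and 8.73 and 3.63 for the sham ones. Of unpartnered injured summits 1036 scored 10 or more, and of unpartnered sham summits 1408 did.

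**Figure D1:**
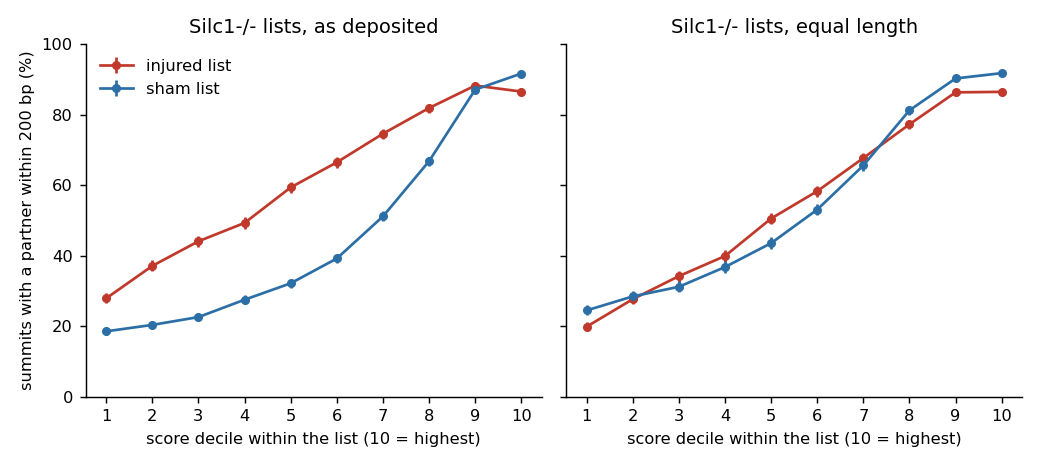
Percent of summits with a partner in the other list (vertical axis) by decile of the score within each list (horizontal axis, 10 highest), as deposited (left) and at equal length (right); bars are 95% Wilson intervals. Sharing climbs with score in both lists, from 27.9% to 86.5% in the injured and from 18.6% to 91.6% in the sham list as deposited.

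An unpartnered summit was often near a summit of the other list all the same. As deposited, 34.5% of unpartnered injured summits lay within 1 kb of a sham summit and 42.6% over 10 kb away, with a median gap of 6372.5 bp. For unpartnered sham summits the shares were 21.0% and 56.8%, and the median gap was 13681 bp. At equal length 27.2% of the injured and 22.6% of the sham ones were within 1 kb. More summits lay just inside the threshold than just outside it. Among injured summits, 1485 lay in the last 50 bp inside the joining distance and 1017 in the first 50 bp outside it, with median scores of 5.08 and 5.08 and shares of 28.8% and 33.0% at gene ends. Among sham summits these were 1498 and 1072, with median scores of 5.67 and 4.97 and shares of 28.2% and 32.9%.

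Where the lists had sites of their own, the sham list's lay more often at gene ends and inside genes, and the injured list's more often far from genes. Gene ends are here positions within 1 kb of either end of a RefSeq protein-coding or long noncoding RNA gene. At equal length 19.7% of unpartnered sham summits (19.1 to 20.3) and 15.5% of unpartnered injured summits (14.9 to 16.1) were at gene ends. Inside genes and away from their ends were 47.1% and 42.4%. Outside genes and over 50 kb from any end were 9.35% of the sham (8.91 to 9.80) and 16.7% of the injured summits (16.1 to 17.3). As deposited the shares over 50 kb were 10.2% and 16.7%, and at gene ends 17.6% and 15.7%. With summits joined within 50 bp the order at gene ends turned, to 22.5% of sham and 24.2% of injured summits as deposited. Partnered summits were at gene ends in 45.9% (injured) and 45.8% (sham) of cases at equal length. Partners lie within 200 bp of each other, so these shares had to be close and are no reference for the unpartnered summits.

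**Figure D2:**
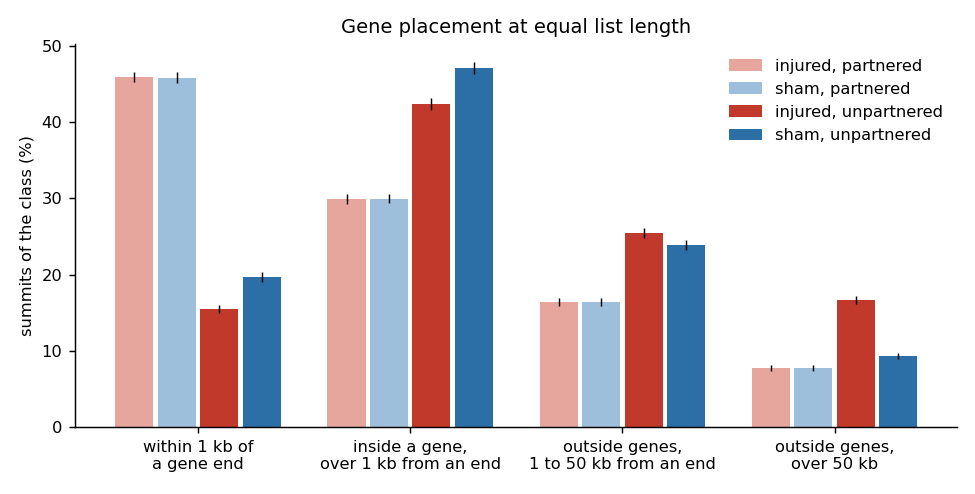
Percent of summits (vertical axis) in 4 classes of gene placement for partnered (pale) and unpartnered (dark) summits of the injured (red) and sham (blue) lists at equal length; bars are 95% Wilson intervals. The partnered bars had to be close, since partners lie within 200 bp of each other. The unpartnered bars part most over 50 kb from genes, 16.7% against 9.35%.

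The contrast was wider among summits over 10 kb from the other list. At equal length 13.8% of such sham summits (13.1 to 14.6) and 7.21% of such injured summits (6.68 to 7.78) were at gene ends, and 9.27% and 20.01% lay over 50 kb from genes. Within bands of score it held for the higher scores. With scores from 10 to below 20, 31.4% of 996 unpartnered sham summits and 19.0% of 610 unpartnered injured summits were at gene ends. With scores of 20 or more the shares were 20.6% of 412 and 7.51% of 426. From 5 to below 10 they were 21.4% of 5460 and 18.6% of 2523. In the bands with most of these summits the lists were close together, at 16.4% of 11060 and 16.9% of 4760 from 3 to below 5, and at 14.7% and 13.7% below 3.

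The chromosomes did not share the difference evenly. At equal length each autosome had 0.927 to 1.02 times as many injured as sham summits, chromosome 11 being the lowest and chromosome 4 the highest. The X chromosome had 1259 injured and 896 sham summits, a ratio of 1.41, and Y had 122 and 68, a ratio of 1.79. On X the ratio was 0.876 at gene ends, 1.84 outside genes within 50 kb of an end and 1.68 farther out, and 43.1% of injured against 60.2% of sham summits there were partnered. As deposited the ratio was 0.963 on X and 0.702 to 0.753 on the autosomes. The sexes of the 6 samples are not given, and their part in this was not tested. The surplus far from genes was also found on the autosomes alone, with 3543 injured and 2628 sham summits at equal length, a ratio of 1.35. As deposited these were 3543 and 3994.

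Gene starts open in 1 list alone belonged mostly to the sham list. Of 17492 protein-coding genes with a RefSeq start of known strand, 8228 had a summit within 1 kb of the start in both lists, 271 (1.55%) in the injured list alone, 1176 (6.72%) in the sham list alone and 7817 in neither. At equal length 430 starts (2.46%) were in the injured list alone and 883 (5.05%) in the sham list alone. Equal length moved 159 starts from both lists to the injured list alone and 293 from the sham list alone to neither. The starts of a single list were weak sites: their median score was 3.20 in the injured and 4.55 in the sham list. Scores of 10 or more were found at 2 of the 271 and 77 of the 1176.

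The highest-scoring starts of the sham list alone were those of Cops9, a small subunit of the COP9 signalosome, Myo1e, an unconventional myosin, and Txndc12, a thioredoxin-like protein of the endoplasmic reticulum. The Cops9 summit (chromosome 1, position 92642016, score 26.3) lay 68 bp before the start shown above, and the nearest injured summit was 35666 bp away. At Myo1e (chromosome 9, 70207262, 23.7) the nearest injured summit was 4549 bp away. The Txndc12 summit (chromosome 4, 108833724, 22.7) had an injured summit 53 bp away, just beyond 1 kb from the start, so that this start parted the lists by the window alone. Next were Dgke, a diacylglycerol kinase (19.2), Pex11g, a peroxisome protein (18.3), and Map4k2, a kinase (17.9), with injured summits 11361, 8462 and 1022 bp away. Farther down the same ranking came Zfp472, Ndufb10, a subunit of respiratory complex I, Nras, the small GTPase (16.7, 37289 bp), and Six4, a homeobox factor known from sensory ganglia (16.2, 59509 bp).

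At the starts of the injured list alone the scores were lower. Man2a1, a Golgi mannosidase (chromosome 17, 64600727, score 15.4), and Sh2b3, an adaptor protein (chromosome 5, 121837019, 11.3), came first, but both had a sham summit 92 and 93 bp away across the edge of the 1 kb window. S1pr2, a sphingosine 1-phosphate receptor (chromosome 9, 20976790, 8.44), came next, with its nearest sham summit 16542 bp away. Fam110c (8.10) and Bcat1, a branched-chain amino acid transaminase (7.31), followed, with gaps of 89254 and 28344 bp. Chrna7, the alpha7 nicotinic receptor subunit (7.31), had a gap of 58412 bp, and Ackr3, an atypical chemokine receptor (chromosome 1, 90203993, 6.86), one of 50436 bp. At equal length the starts of Lrp3, which encodes a lipoprotein receptor-related protein (10.8, nearest sham summit 19566 bp away), and Gabra2, a GABA receptor subunit gene (9.74, 143758 bp), joined this class above S1pr2. As deposited the Gabra2 start was open in both lists. Its sham summit had the tied score at the cut, 3.01, and was left out by the random order of ties.

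Sequence at the starts differed between the classes. RefSeq windows of genes open in both lists had a median of 62.3% G and C and 23 CpG. The medians were 60.0% and 16 for the injured list alone, 58.3% and 15 for the sham list alone, and 49.0% and 4 for neither list, over 21238 windows in all with a median of 56.3% and 13. The Sp/KLF motif was in 70.3% of windows open in both lists, 52.5% (47.3 to 57.7) of the injured list alone, 53.3% (50.8 to 55.8) of the sham list alone and 46.2% of all windows. AP-1, the motif of Jun and Atf-family dimers, was in 7.30% (5.03 to 10.5) of 356 windows of the injured list alone, 6.55% (5.40 to 7.93) of 1480 of the sham list alone and 6.99% of all windows. The 2 single-list classes thus had intervals for Sp/KLF and AP-1 that overlapped. Their windows came from 271 and 1176 genes, and windows of the same gene can overlap. All intervals over windows count each as separate and may be too narrow. ETS matches were in 2.25% (1.14 to 4.37) of the injured and 5.07% (4.06 to 6.31) of the sham windows, 9.63% of those open in both and 5.15% of all. At equal length the ETS shares were 1.99% (1.11 to 3.52) and 5.91% (4.67 to 7.47). CRE was in 1.40% and 1.96% of the single-list windows against 2.24% of all. NRF1 was in 0.843% and 1.49% against 1.33%. NFY was in 25.6% and 30.5% against 38.2%, and the CTCF core in 73.6% and 78.4% against 69.6%. A match here is a run of letters and says nothing of binding.

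Among shared sites the order of scores was similar but not the same. The 21862 mutually nearest pairs lay a median of 41 bp apart, and Spearman's rho of their scores was 0.716 (0.731 over 19488 pairs at equal length). These are values across sites, which are not replicates. Of the 1948 pairs in the top decile of each list at equal length, 1302 (66.8%) were in the top decile of both. By placement rho was 0.829 at gene ends, 0.573 inside genes, 0.551 outside them within 50 kb and 0.713 over 50 kb away.

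Pairs at gene ends ranked lower after injury and pairs in gene deserts ranked higher. The shift is given in percent of all pair ranks, positive where the pair ranked higher after injury. Its median was -3.57 over 8927 pairs at gene ends, 1.21 over 5841 pairs inside genes, 2.09 over 3207 outside genes within 50 kb and 9.07 over 1513 over 50 kb away. At gene ends 36.9% of pairs ranked higher after injury, and over 50 kb away 72.5% did. Shifts of more than 25 percent of ranks upward were seen in 4.42% of pairs at gene ends and 26.3% of pairs over 50 kb away. Ranks are set over the pairs, so a lower rank in one class requires a higher one in another.

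**Figure D3:**
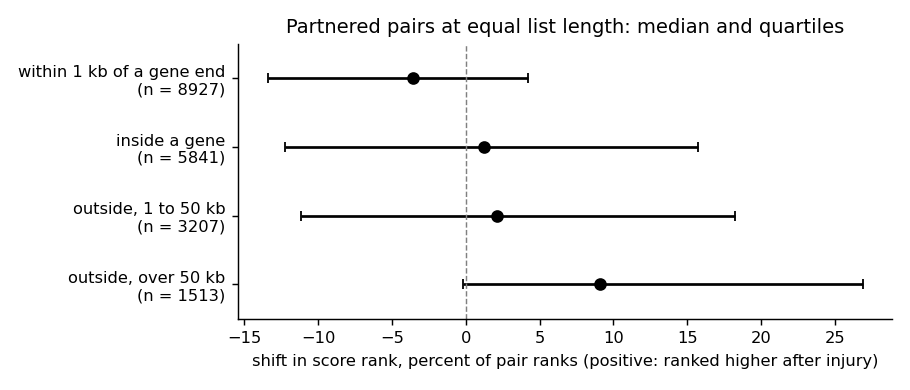
Shift in score rank from sham to injured (horizontal axis, percent of pair ranks, positive where the pair ranked higher after injury) for partnered pairs at equal length in 4 placement classes (vertical axis); points are medians and bars run from the lower to the upper quartile. The median goes from -3.57 at gene ends to 9.07 over 50 kb from genes.

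Among pairs with scores of at least 5 in both lists, the largest losses of rank were mostly at gene starts. Ptbp2, a neuronal splicing regulator, had scores of 5.17 after injury and 32.2 after sham at chromosome 3, position 119783177, 211 bp from its start, and its rank fell by 53.0 percent. Ctnnbl1, a spliceosome-associated protein, had 5.08 and 28.2, and Mrpl44, a mitochondrial ribosomal protein, 5.80 and 35.5, with shifts of -51.9 and -50.8. The Mthfd2, Acyp1, Ercc6l, Zfp68, Nudcd2 and Nrxn2 loci followed, at -49.2 to -46.3, and all of these lay within 62 bp of a gene end or start. The site in Zfp185 on X (-52.7) was 20988 bp from a gene end and was the exception among the 10.

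The largest gains of rank among the same pairs lay in other places. The site nearest to Alk, a receptor tyrosine kinase (chromosome 17, position 72635221), scored 26.2 after injury and 5.67 after sham, 30519 bp from the gene, with a shift of 67.5. Sites nearest to Eda2r and Rps6ka3, both on X, had the same pair of scores at 227456 and 244602 bp from those genes. Such ties show how coarse the scores are at this level. Sites in Lrrc29 (21.3 against 5.14) and in Slc2a9, a urate transporter (21.5 against 5.67), lay inside genes, and that nearest to Pappa, a metalloprotease, was 256150 bp away (22.0 against 5.67). None of the 10 was within 1 kb of a gene end, the closest being Lrrc29 at 5265 bp, and the site in Slc2a9 was 2970 bp from a start.

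The 3 pairs with the highest scores held the same ranks in both lists. The top pair lay at the same base of chromosome 2, position 98666996, 35603 bp from the long noncoding RNA gene Gm33780, with scores of 33338.8 after injury and 29129.5 after sham. The next lay on chromosome 14 at 19417300 near Gm41101 (27601.4 and 28665.8) and on chromosome 9 at 3001445 near 4930433N12Rik (19698.1 and 19129.9). The only protein-coding gene among the nearest genes of the first 10 was Chl1, a neural adhesion molecule, with a pair inside the gene at 103649206 on chromosome 6 (5005.83 and 4825.33). No list of regions with unusual signal was used to remove such sites.

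Single summits with no summit of the other list within 10 kb were ranked by score. Among the 10 strongest of each list, Gas8 was the only nearest gene found in both directions. Near Gas8, a dynein regulator of cilia, the injured list had its strongest such summit at chromosome 8, position 123574381 (score 74.2), and the sham list had its own at 123555879 (68.6), 18502 bp apart. The injured list next had summits in 4921504E06Rik (73.3, 10588 bp from a sham summit), near Apba2, a neuronal adaptor protein (47.4), and in Capn8, a calpain protease (28.8). The sham list next had summits near Ccng2, a cyclin (chromosome 5, 93289681, 68.3), near Ifngr2, a subunit of the interferon gamma receptor (chromosome 16, 91534676, 41.3), and in Zfp791 (38.1). Among the 10 strongest of each list over 1 kb from the other list, more nearest genes were found in both directions. They were Gm46074, Mid1, Thada, Ahnak2, Pdzk1, 3632454L22Rik and Gas8. In Thada, for example, an injured summit (99.9) and a sham summit (91.1) lay 1551 bp apart.

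Starts of genes with regenerative roles were open in both lists about as often as those of all genes. Of 33 regeneration-associated genes with a known start, 17 had a start summit in both lists, 3 in the injured list alone and 0 in the sham list alone, against 47.0%, 1.55% and 6.72% of all coding starts. The 3 were Plaur, the urokinase receptor (score 5.89), Basp1, a growth-cone protein (4.53), and Hspb1, a small heat shock protein (4.21). These scores are low, and the list was drawn up with earlier results of these data known. Shared starts with high scores were those of Klf7 (31.2 after injury and 45.9 after sham), Stat3 (29.4 and 43.1), Klf6 (27.1 and 46.5) and Gadd45a (31.8 and 70.4), transcription factors of axon growth and a stress gene. Jun had 20.5 and 20.9, and Atf3 13.8 and 15.4.

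The ranks of these shared starts moved both ways. Over 16 pairs at starts of regeneration-associated genes 9 ranked higher and 7 lower after injury, with a median shift of 8.08, while all 7630 start pairs had a median of -3.52 and 63.7% ranked lower. Cebpb, a transcription factor of the injury response, moved most, from 3.94 after sham to 6.69 after injury (39.6), followed by Anxa2, a membrane-binding protein (23.7), Smad1, a mediator of BMP signals (16.1), and Csf1, a macrophage growth factor (15.4). Il6 (-17.5) and Tubb3, a neuronal tubulin (-17.3), stood at the other end. Housekeeping genes had a median of -8.26 over 17 pairs, 13 of them lower, with Rps18 at -46.2.

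Around these genes the summit counts within 50 kb of either end were a little lower in the injured list, as around all genes. The sum over members was 127 in the injured and 176 in the sham list as deposited, and 127 and 139 at equal length. The ratios of these sums were 0.722 and 0.914. Over all protein-coding genes the ratios were 0.758 as deposited and 0.948 at equal length. The sums of every list below are to be read beside these 2 all-gene ratios. At equal length the median log2 ratio, with 1 added to each count, was -0.26 over the 38 members with a summit, and 0 over all 19417 protein-coding genes with one. Counted within 10 kb it was 0. At equal length and within 50 kb, 10 members had more injured and 22 more sham summits, against 6241 and 7780 of all genes. Ratios of 2-fold or more were found upward for 2 members and downward for 3, where all genes had 8.17% upward and 8.19% downward. As deposited 5.37% and 5.65% of 19720 genes passed the same limits after scaling to list length. Basp1 had 6 injured and 4 sham summits as deposited (2 at equal length), Smad1 6 and 3, Socs3, an inhibitor of cytokine signalling, 6 and 11, and Gap43 1 and 4. Sprr1a had 0 and 1, the latter with a score of 1.87.

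Basp1 shows how such a count is made up. Its injured summits had scores of 8.91, 6.03, 4.53, 2.03, 1.91 and 1.62, and its sham summits 5.67, 5.61, 1.35 and 1.35. The summit at 25414963 on chromosome 15 (6.03) had a sham partner 23 bp away, and that at 25436242 (8.91) a sham summit 378 bp away. The start itself (25413576, 4.53) was 1410 bp from the nearest sham summit.

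At Sox11 (gene ID 20666, chr12:27334268-27342718) the injured list had 1 summit within 50 kb, at 27342786 with a score of 5.28, and the sham list had 2, at 27343080 (7.08) and 27341853 (5.21). The 294 bp between the first 2 is beyond the joining distance, so the strongest site of each list at this gene counted as unpartnered, although both lists had a summit within 1 kb of the start. The gene table does not list Silc1 by name, and Gm9866 was used for it from general knowledge (chr12:27140796-27160516). Within 50 kb of it the injured list had no summit and the sham list had 1, at 27183159, 22643 bp away with the lowest score kept at equal length. The lists thus could not check the deletion.

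The Atf3 neighbourhood held 7 injured and 9 sham summits. The strongest was at the same base in both lists, 191120983 on chromosome 1, 49313 bp from the gene, with scores of 31.3 after injury and 38.6 after sham. A sham summit at 191126111 (11.2) was 5128 bp from the nearest injured summit, and one at 191197595 (6.31) had its nearest 14074 bp away. Injured summits at 191222224 (5.62) and 191153311 (1.91) likewise lay 1964 and 5688 bp from a sham summit. At Jun the start summits were 5 bp apart (95052283 and 95052288), and the sham list alone had summits at 95050760 (6.46) and 95074410 (5.67). In Gap43 the shared site was inside the gene at 42255970 (7.31) and 42256045 (7.94).

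Immediate-early genes, which respond within minutes to activity or stress, were open in both lists at 13 of 15 starts and in 1 list alone at 0, against 47.0% of all coding starts in both, 1.55% in the injured and 6.72% in the sham list alone. Their summit sums were 113 and 140 (124 at equal length). Egr4 had 0 and 3 summits, Egr3 5 and 8, and Ier2 6 and 10 (9 at equal length). Fosb, a partner of Jun in AP-1, had 12 and 12 as deposited and went the other way only at equal length, with 12 and 9. Ranks of their start pairs were spread widely: Nr4a3 moved by 28.8 and Ier3 by 21.2, while Egr2 moved by -58.7 (3.06 after injury and 16.4 after sham) and Fosl2 by -44.0 (4.66 and 18.9). Egr2 is also a master regulator of myelinating Schwann cells.

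Genes of sensory neuron identity had fewer sites in the injured list. Of 14 members with a known start, 4 were open in both lists, 4 in the sham list alone and 0 in the injured list alone, against 6.72% and 1.55% of all coding starts. The 4 in the sham list alone were Pou4f1, a homeodomain factor that specifies sensory neurons (8.53), Prph, the intermediate filament peripherin (5.69), Avil, the actin-binding protein advillin (5.47), and Tac1, the substance P precursor (1.87). At equal length Tac1 was open in neither list. Both lists had starts of Isl1 (9.74 after injury and 13.8 after sham), Runx1 (12.1 and 28.0), Ntrk2 (3.66 and 13.1) and Uchl1 (5.75 and 5.62). Summed summits were 62 in the injured and 122 in the sham list, and 62 and 88 at equal length, where the median log2 ratio was -0.31, 14 members had more sham and 2 more injured summits. With summits counted within 10 kb, and at scores of at least 10, the median was 0.

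Pou4f1 (gene ID 18996, chr14:104461675-104468118) had the largest difference of the identity list, 0 injured and 7 sham summits. The sham scores were 9.06 at 104474630, 8.53 at 104468070, 5.67 at 104459617, 4.29 at 104469766, 4.24 at 104505959, 3.17 at 104474079 and 3.01 at 104505167. The nearest injured summit lay 54583 bp from the sham summit at 104468070. The other members named by size were Runx1, with 2 and 6 summits (5 at equal length), and Avil, with 8 and 12 (10 at equal length).

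**Figure D4:**
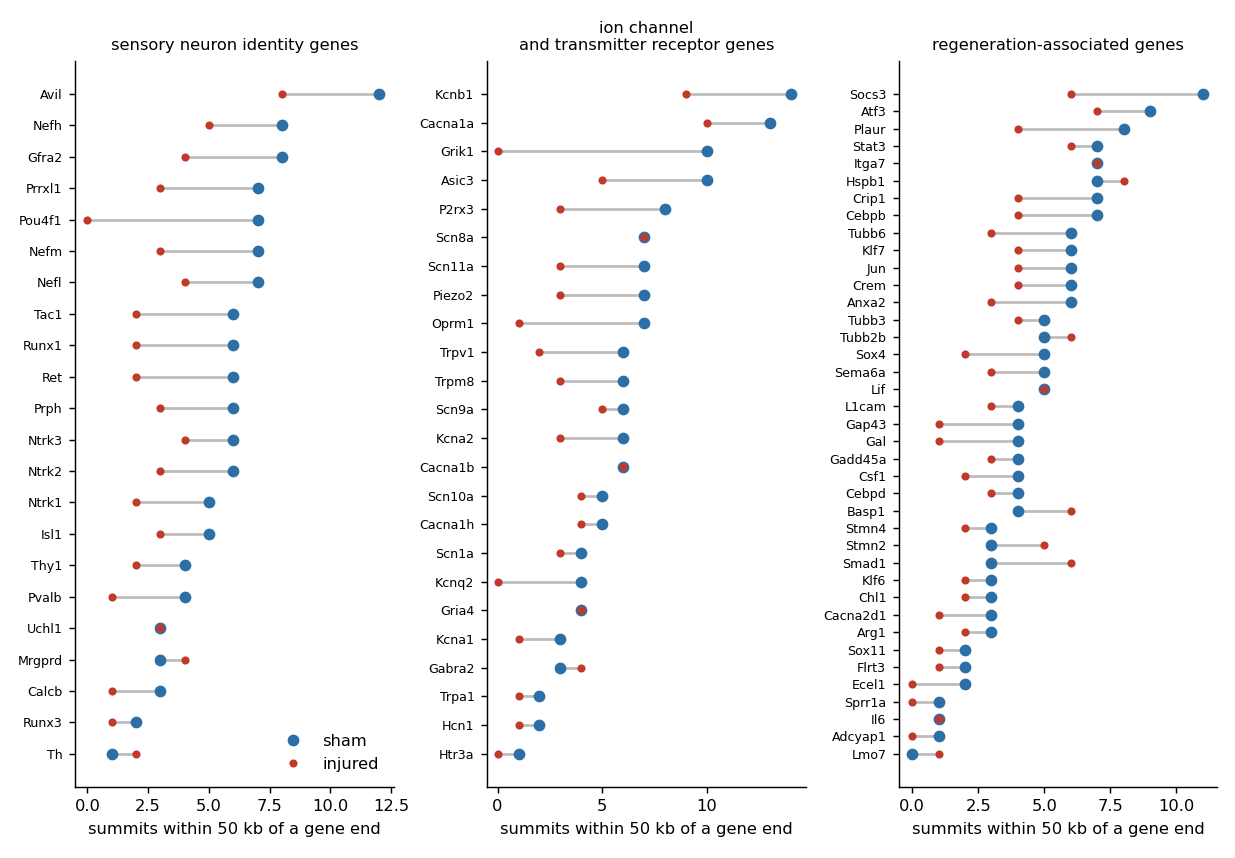
Summits within 50 kb of either gene end (horizontal axis) in the sham (blue, large) and injured (red, small) lists as deposited, for the members (vertical axis) of 3 gene lists with a summit. Pou4f1 and Grik1 stand at 0 after injury against 7 and 10 after sham. Of the regeneration-associated genes 6, among them Basp1, Smad1 and Stmn2, have more injured summits, and 30 have more sham summits.

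Genes for ion channels and transmitter receptors, which set the excitability of these neurons, showed the same direction as deposited and a smaller difference at equal length. Their sums were 82 and 146, and 82 and 103 at equal length, with a median log2 ratio of -0.19; 13 of 24 had more sham and 6 more injured summits. Within 10 kb, and within 100 kb, the median was 0. Of 13 with a known start, 6 were open in both lists and only Scn11a, a sodium channel of nociceptors, was open in 1 alone, the sham list (4.62), against 47.0% of all coding starts in both and 6.72% in the sham list alone. At equal length Gabra2 was open in the injured list alone (9.74), since its sham start summit of 3.01 was left out at the cut. Asic3, an acid-sensing channel, had 5 and 10 summits, P2rx3, the ATP receptor of nociceptors, 3 and 8, Trpm8, the cold sensor, 3 and 6, and Gabra2, which encodes a GABA receptor subunit, 4 and 3 (1 at equal length).

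Oprm1, the mu opioid receptor, and Grik1, a kainate receptor subunit, differed at sites both near to and far from their ends. Around the ends of Oprm1 there were 1 injured and 7 sham summits (4 at equal length). The shared site was at 7076377 and 7076379 on chromosome 10 (8.91 and 11.2), 38168 bp beyond the gene, and 2 further pairs lay within the gene at 6832997 and 6846492. Grik1 (chr16:87895901-88290863) had 0 injured and 10 sham summits (6 at equal length) within 50 kb of its ends, but 7 injured summits deeper inside. Of these 6 were partnered, for example that at 88029250 (8.91 after injury and 4.97 after sham) and that at 88071318 (3.09 and 10.6). By nearest gene and at equal length Grik1 had 7 injured and 20 sham summits, of which 2 and 15 were unpartnered.

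Glial genes had 82 injured and 121 sham summits (94 at equal length). The ratios were 0.678 and 0.872, against 0.758 and 0.948 over all protein-coding genes. Of 15 known starts, 3 were open in both lists, 4 in the sham list alone and 0 in the injured list alone, against 47.0%, 6.72% and 1.55% of all coding starts. At equal length the counts were 2, 3 and 1, the last being Pmp22, a myelin protein (3.99). The 4 were S100b, a calcium-binding protein of glia (6.64), Cnp, a myelin enzyme (4.08), Ngfr, the low-affinity neurotrophin receptor (3.44), and Foxd3, a neural crest factor (2.42), of which Foxd3 was open in neither list at equal length. Glul, the glutamine synthetase of satellite glia, was open in both lists at 19.8 and 27.0.

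Genes of the other cell types of the ganglion had few open starts in either list. No macrophage start of 13 was open in both lists, and C1qb, a complement subunit, was open in the sham list alone (3.63). Of all coding starts 47.0% were open in both lists and 6.72% in the sham list alone. The neighbouring C1qa, C1qb and C1qc had 0 injured and 3, 4 and 4 sham summits, which are partly the same summits, and Mrc1, the mannose receptor, had 2 and 7. Cx3cr1, the fractalkine receptor, went the other way with 7 and 4. Summed over macrophage genes the counts were 64 and 89 (71 at equal length), with a median log2 ratio of 0 at equal length. Neutrophil genes had 34 and 50, with starts of S100a8 (3.09 and 9.55) and Camp (3.73 and 8.73) in both lists. Fibroblast and matrix genes had 18 and 30 (21 at equal length). Lymphocyte genes had 43 and 60, of which Lck, a T cell kinase, had 4 and 9.

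The endothelial and mural cell genes had the highest ratio of sums, 47 injured and 50 sham summits as deposited, and 47 and 35 at equal length, with a median log2 ratio of 0.29. At equal length 4 of 16 members were 2-fold or more up and 2 down, against 8.17% and 8.19% of all genes. As deposited these were 3 and 2, against 5.37% and 5.65%. Erg, described below, was among the members up at equal length. Within 10 kb, and at scores of at least 10, the median was 0. Cspg4, a pericyte proteoglycan (3.35), and Kcnj8, a potassium channel of pericytes (1.38), had start summits in the injured list alone. These were 2 of 12 known starts, against 1.55% of all coding starts. Erg, an endothelial transcription factor, had 6 and 4 summits as deposited and 6 and 0 at equal length. Its 4 sham summits scored 1.35 to 1.87 and were lost at the cut, while injured summits of 1.91 in the same place were kept, and 3 of the 4 had an injured summit within 276 bp. The site with the highest score in Erg, 108.3 at 95509929 on chromosome 16, had a sham partner 77 bp away (67.1) and lay too deep in the gene to be counted.

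Axon guidance genes had 43 and 65 summits (49 at equal length). The ratios were 0.662 and 0.878, against 0.758 and 0.948 over all protein-coding genes. Of 15 starts 9 were open in both lists, and those of Epha4, an ephrin receptor (10.2), and Slit2, a repellent ligand (5.02), were open in the sham list alone. For this list and those that follow, all coding starts gave 47.0% in both, 1.55% in the injured and 6.72% in the sham list alone. The semaphorin receptors Nrp1 and Nrp2 had 2 and 5, and 3 and 8 summits. Plxna2, their co-receptor, ranked lower after injury by 41.4 percent of ranks (4.62 and 17.5). Skeletal muscle and liver genes, of tissues that are not part of the ganglion, had no start open in both lists, 1 of 12 and 2 of 13 in the sham list alone, and 0 in the injured list alone. Sums were 52 and 58 for muscle (43 at equal length) and 34 and 56 for liver (43 at equal length). The muscle ratios, 0.897 and 1.21, were the highest after those of endothelial and mural cell genes, 0.94 and 1.34. The liver ratios, 0.607 and 0.791, were near those of ion channel and transmitter receptor genes, 0.562 and 0.796. Lists of tissues outside the ganglion thus had ratios like those of lists within it. Of 19 housekeeping starts 18 were open in both lists, and Eef2, an elongation factor, had a start summit in the sham list alone (5.84).

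**Figure D5:**
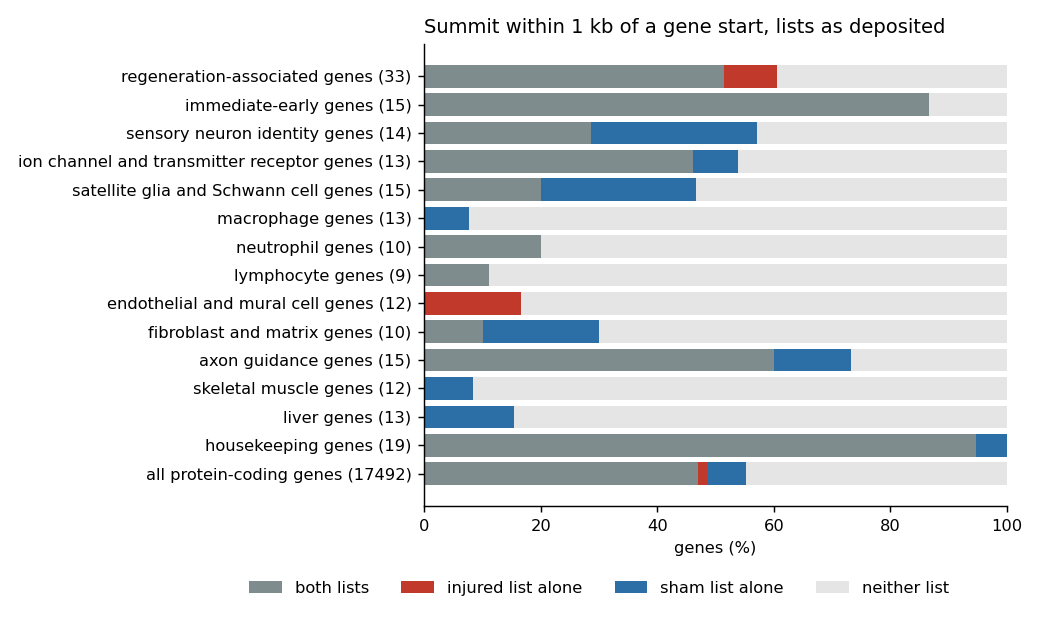
Percent of genes (horizontal axis) with a summit within 1 kb of the start in both lists (grey), the injured list alone (red), the sham list alone (blue) or neither (pale), as deposited, for 14 gene lists and all coding genes (vertical axis, number of genes with a known start in brackets). Red appears for regeneration-associated and for endothelial and mural cell genes, blue for sensory neuron and glial genes among others.

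Unpartnered summits were spread over many genes: at equal length 7901 protein-coding genes were nearest to an injured one and 8371 to a sham one. The genes nearest to most unpartnered injured summits were Ube3a, a ubiquitin ligase (40 injured and 30 sham), 4932411N23Rik on X (20 and 8), D3Ertd751e (20 and 10), Celf2, an RNA-binding protein (19 and 13), and 9530057J20Rik (18 and 5). Of the 40 at Ube3a only 1 lay inside the gene. Long noncoding RNA genes were left out of this ranking. Among them is Snhg14 (chr7:59272737-60450177), which overlaps Ube3a. Ube3a also led the sham side, followed by Csmd1 (20 sham and 12 injured), Tenm3, a synaptic adhesion protein (20 and 18), Rbfox1, a neuronal splicing factor (18 and 11), Nrxn3, a presynaptic neurexin (16 and 6), Enox1 (15 and 8), Grik1 (15 and 2) and Robo2, the Slit receptor (15 and 9). In Rbfox1, Enox1 and Nrxn3 most of the unpartnered sham summits were inside the gene (16, 15 and 13), whereas in Tenm3 10 were. Genes of 500 kb or more, 227 in number, took 7.92% of unpartnered injured and 7.29% of unpartnered sham summits. As deposited the shares were 7.92% and 7.58%. No other limit of length was used, and a part of gene length in the difference was not tested.

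By the net difference in nearest summits at equal length, a ranking added after the values were seen, Nkain3 stood at 20 injured and 9 sham summits, Sntg1, a syntrophin of neurons, at 14 and 3, Dmd, the dystrophin gene, at 18 and 8, and Pcdh17, a protocadherin, at 12 and 2. In the other direction Pknox2, a homeobox factor, had 6 injured and 17 sham summits, Cd180, a B cell receptor of the Toll-like family, 7 and 17, Pitpnc1, a lipid transfer protein, 5 and 15, and Rbms3, an RNA-binding protein, 13 and 23. Of the unpartnered sham summits at Pitpnc1 12 of 13 were inside the gene. At Pcdh17 all 10 unpartnered injured summits were outside it.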

How the data were processed

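ATAC-seq peak summits of the Silc1-/- injured and Silc1-/- sham groups were compared, 3 libraries and 1 list each. The build was mm10, and reads passed through Bowtie2 and MACS2, per the submitters' processing notes. Versions, read filters, any shift of insertion positions (a few bases, under the 200 bp used to join summits) and whether libraries were pooled are not stated in any source at hand. The deposited score of each summit is the authors' −log10 of a p-value or q-value, and which of these is not stated. The lowest scores lie just above 1.30, which is −log10 of 0.05. Scores rise with depth, which is unknown, and were used to rank or filter within a list, so scores of the 2 lists set side by side are not a measured change.

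Positions are 1-based. Genes and promoter windows came from RefSeq (GRCm38.p6), and 283 of 284 list symbols matched. Equal length means the 35815 highest scores of each list, tied scores in a fixed random order. Gene neighbourhoods count summits within 50 kb of either gene end, and their log2 ratios use a pseudocount of 1. Rank shifts were named among pairs with scores of at least 5 in both lists, and no other score filter was used outside the alternatives and the equal-length cut. Genes were named by a rule: the 10 strongest unpartnered summits, pairs, rank shifts, single-list starts and nearest genes in each direction, up to 4 members of each gene list by difference, and Sox11, Atf3, Jun, Gap43, Sprr1a and Silc1. The text names part of these, in order of rank; starts of list members, the start pairs of list members and other members were named for their class or shift after their values were seen. The members, gene lists and rules were chosen with earlier results of these data known. The joins were checked on simulated data. Alternatives were other joining distances, score minimums, list lengths, chromosomes, windows, neighbourhoods and pseudocounts. Python 3.11.15, numpy 2.4.6, pandas 2.3.3, scipy 1.17.1 and matplotlib 3.10.9 were used.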

Additional observations from a re-analysis of the deposited data

How the results depend on the processing

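Each group has 1 list, so no replicate could be left out. No paired analysis was possible because each group has a single list whose columns carry no replicate numbers. Depth limits every value: weak sites enter or leave a list with it, and their share could not be measured. The percent of injured summits with a sham partner was 61.5%, and of sham summits with an injured partner 45.7%. At joining distances of 50, 500 and 1000 bp these were 35.3% and 26.1%, 71.1% and 53.4%, and 74.8% and 57.1%. At scores of at least 5 and 10 they were 67.5% and 52.7%, and 75.7% and 55.5%. At equal length they were 54.8% and 54.6%. With the sham list cut above its tied score and the injured list whole, an alternative chosen after seeing the data, they were 54.1% and 55.6%.

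Unpartnered summits were at gene ends in 15.7% (injured) and 17.6% (sham) of cases. At 50 bp the order was the other way, 24.2% and 22.5%; at 500 and 1000 bp it was 9.68% and 14.7%, and 7.58% and 13.02%. For sham the share was 27.3% at scores of at least 5, and a minimum of 10 gave 14.7% for injured and 51.3% for sham. At equal length the sham share was 19.7%, and with the tied scores left out 20.3%. On autosomes the injured share was 16.4%. Gene end windows of 500 and 2500 bp gave 11.2% and 12.2%, and 22.2% and 25.7%. The Spearman correlation of the scores was 0.716, and it was 0.759 at 50 bp, 0.642 at scores of at least 10, 0.731 at equal length and 0.732 with the tied scores left out.

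Starts in the injured list alone were 1.55% and in the sham list alone 6.72%. At scores of at least 5 the sham share was 8.48%, and at scores of at least 10 the shares were 0.686% and 11.8%. At equal length they were 2.46% and 5.05%, with the tied scores left out 2.54% and 4.91%, and with a start window of 2500 bp 1.81% and 7.38%. Of 14 gene lists 8 had a median log2 ratio below that of all genes, but 2 within 10 kb. Of 70 medians under the alternatives 36 moved by more than 0.1. Other shares stayed within the intervals of the values above, and other values of the correlation ran from 0.708 to 0.725.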
